A study of Mus musculus with 12 samples.

Results

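The genes described here encode the proteasome, the protease complex that degrades ubiquitin-tagged proteins, and its activators, inhibitor and assembly chaperones. They were taken by symbol, as every listed row that begins with Psm, one of the letters a to g and a number, with pseudogenes left out. The rule found 49 of the 14560 genes in the table. One of them, Psmc3ip, matches the rule by its symbol but encodes a meiotic recombination factor and no proteasome subunit, so 48 genes are proteasome genes. All 49 had a value in every library and were tested without a filter on low values.

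RNA was sequenced from 4 populations sorted from the bone marrow of C57BL/6 mice, with 3 libraries each and 12 in all. They follow the path by which granulocyte-monocyte progenitors become basophils. DN-GMPs lacked surface CDH1 (E-cadherin) and FceRIa, a chain of the IgE receptor. Pro-BMPs carried CDH1 but not FceRIa, and Pre-BMPs carried FceRIa with CDH1 given as absent. These 3 progenitor populations were all c-Kit+ CD34+ CD16/32+ and negative for B220, CD3, Ter119, CD11b, Gr1 and Sca1. Basophils were c-Kit-, CD49b+ and FceRIa+, and negative for B220, CD4, CD8a, Ter119 and Sca1. No population was treated or carried an altered allele in the labels. Every population was sorted in 2 rounds into TRIzol, and the design text names 3 mice.

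The core of the proteasome is a barrel of outer rings of alpha subunits (Psma genes) and inner rings of beta subunits (Psmb genes). The catalytic sites sit on Psmb5, Psmb6 and Psmb7, whose activities are chymotrypsin-like, caspase-like and trypsin-like. In immune cells and under interferon gamma, Psmb8, Psmb9 and Psmb10 take their places during assembly and form the immunoproteasome, known for supplying peptides to MHC class I. A regulatory particle of ATPases (Psmc genes) and other subunits (Psmd genes) binds, deubiquitinates and unfolds substrates, while Psme proteins are alternative activators and Psmg proteins chaperone core assembly.

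The deposited values were log2 counts per 1000000 (CPM) of a scaled library size, with 0.5 read added, and reads on listed genes numbered 29762981 to 42502405 per library. At this depth 3 reads, the limit that a count of 0 allows, came to 0.0512 to 0.0745 CPM. This limit covers counting error only. Labels were checked against markers: 5 of 5 basophil markers summed to 32678 to 38393 CPM in basophils, against 26.5 to 41.8 CPM in DN-GMPs, where Fcer1a and Cd200r3 had 0 reads in each library. The 5 of 5 progenitor markers summed to 17734 to 20713 CPM in DN-GMPs, 16551 to 18401 CPM in Pro-BMPs, 5460 to 6256 CPM in Pre-BMPs and 1901 to 2732 CPM in basophils. The 2 of 4 mast cell markers that were listed summed to 82.7 to 289 CPM in Pre-BMPs and at most 1.74 CPM in any other population. The 2 of 3 erythroid markers that were listed summed to 127 to 168 CPM in Pre-BMPs and at most 26.0 CPM in any other population. Of 4 B and plasma cell markers only Cd79a was listed, at 4.07 to 4.54 CPM in basophils and at most 1.61 CPM in any other population. Of 3 T and NK cell markers 0 were listed, so those cells could not be checked this way. The 5 of 5 monocyte and dendritic cell markers summed to 1051 to 1309 CPM in DN-GMPs, 318 to 401 CPM in Pro-BMPs, 31.1 to 34.6 CPM in Pre-BMPs and 229 to 415 CPM in basophils, with Itgax at 0 reads in all DN-GMP libraries and Flt3 at 0 in all basophil libraries. The share of reads outside annotated features moved with the populations as well, with 6.65% to 7.77% for DN-GMPs, 7.69% to 8.42% for Pro-BMPs, 9.15% to 10.2% for Pre-BMPs and 11.2% to 12.6% for basophils. The part of these measures in the results below was not tested. The labels number the libraries 1 to 3 but do not say that a number marks a mouse, so p-values measure the spread between libraries. In bulk samples such as these, fewer cells of a type and less RNA per cell cannot be told apart.

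Transcripts of the 48 proteasome genes had a lower mean summed level at each later stage. Their summed level was 9346 ± 493 CPM in DN-GMPs, 8571 ± 332 CPM in Pro-BMPs, 7303 ± 563 CPM in Pre-BMPs and 6044 ± 219 CPM in basophils (SD, n = 3 each). The DN-GMP libraries spanned 8862 to 9847 CPM and overlapped the Pro-BMP libraries, at 8239 to 8903 CPM. The Pre-BMP libraries, at 6654 to 7670 CPM, lay below both, and the basophil libraries, at 5801 to 6225 CPM, lay below the Pre-BMP libraries. As a share of the reads on listed genes, without the deposited scaling, the 48 genes took 1.25% ± 0.0799 in DN-GMPs, 1.17% ± 0.0368 in Pro-BMPs, 1.02% ± 0.0807 in the Pre-BMP libraries and 0.675% ± 0.0350 in basophils (SD, n = 3 each). The deposited scaling factor, which this share leaves out, was 0.839 to 0.858 in basophils and 1.03 to 1.08 in the other populations.

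**Figure D1:**
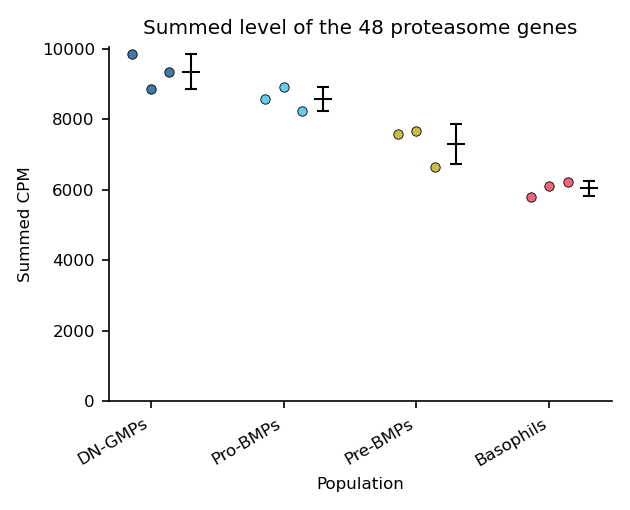
Summed CPM of the 48 proteasome genes (vertical axis) in each library of the 4 populations (horizontal axis). Points are libraries, and bars give the mean and 1 SD of 3 libraries. The 3 basophil libraries, at 5801 to 6225 CPM, lie below the 9 progenitor libraries, and the DN-GMP libraries, at 8862 to 9847 CPM, overlap only with Pro-BMPs.

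Among the 49 genes, 36 had their highest mean in DN-GMPs and 40 had their lowest mean in basophils. For 29 of 49 the mean log2 value was lower at every step of the order. These counts were not made over all genes, so they do not show what is particular to the 49. The log2 change in basophils against DN-GMPs was below 0 for 47 of the 49, against 7314 of all 14560 genes. The limma F-test across the 4 populations called 38 of 49 (Benjamini-Hochberg adjusted p under 0.05, with every gene of the table adjusted together), against 46.8% of all genes and 59.1% of genes above 10 CPM. The 11 that it did not call were Psma2, Psma6, Psmb3, Psmc2, Psmd4, Psmd10, Psmd13, Psme1, Psme2b, Psme4 and Psmf1.

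At the first step, Pro-BMPs against DN-GMPs, limma called 0 of the 49 genes in either direction, where 2% of all genes were called higher and 0.536% lower (0.652% of genes above 10 CPM). At an unadjusted p under 0.05, 6 were lower and 0 higher, against 4.83% and 9.02% of all genes. The libraries did not overlap for 14 lower genes (28.6%) and 1 higher gene (2.04%), against 9.03% and 9.81% of all genes. The median log2 change was −0.11, against 0.02 over all genes. With voom weights on the recovered reads, Psmb10 and Psmd11 were called lower, each at an adjusted p of 0.0475.

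At the second step, Pre-BMPs against Pro-BMPs, 5 genes fell (10.2%, against 4.69% of all genes and 6.69% of genes above 10 CPM): Psmb10, Psma4, Psmd6, Psma5 and Psmd1. None rose, where 4.8% of all genes did. At an unadjusted p under 0.05, 20 were lower and 1 higher, against 11.2% and 11.7% of all genes. All Pre-BMP libraries lay below all Pro-BMP libraries for 24 of 49 (49%) and above for 0, against 16.3% and 16% of all genes. The median log2 change was −0.27, against 0.02 over all genes. The count of 5 was fragile: it was 1 without Pro-BMP replicate 2, Pre-BMP replicate 1 or Pre-BMP replicate 3, 3 without Pro-BMP replicate 1 or 3, 1 without a mean-variance trend, and 9 when genes under 10 CPM were left out. Psmb10 alone was called whichever of the 6 libraries was left out.

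In basophils against Pre-BMPs, 24 genes fell (49%, against 16.5% of all genes and 20.6% of genes above 10 CPM) and Psmd9 alone rose, where 13.9% of all genes did. Without Psmc3ip the count was 23 of 48 lower. All basophil libraries lay below all Pre-BMP libraries for 24 genes and above for 2, against 24.1% and 23% of all genes. The median log2 change was −0.31, against −0.10 over all genes. The number lower was 14 without Pre-BMP replicate 1, and 14 without a mean-variance trend or with both populations fitted alone. It was 38 when values were scaled by the total of listed genes, which itself moved the median of all genes by −0.32. That scaling also took the number of all 14560 genes called lower from 2408 to 3813. Of the 25 called genes, 13 were called whichever of the 6 libraries was left out.

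Over the whole path, basophils against DN-GMPs, 37 genes fell (75.5%, against 23.2% of all genes and 28.6% of genes above 10 CPM) and Psmd9 alone rose, where 23.2% of all genes did. Without Psmc3ip, 36 of 48 fell. The libraries did not overlap for 39 lower genes (79.6%, against 27.4% of all genes) and 1 higher gene (against 27%). The median log2 change was −0.73, against −0.01 over all genes. Of the 38 calls, 36 were kept whichever of the 6 libraries was left out, while Psma1 was lost without DN-GMP replicate 1 and Psmb1 without DN-GMP replicate 1 or basophil replicate 1. Scaling by the total of listed genes moved the median of all genes by −0.26 here and gave 44 lower genes, adding Psma2, Psma6, Psmb3, Psmc2, Psmd4, Psmd13 and Psme1. It took the number of all 14560 genes called lower from 3376 to 4276. Quantile normalization moved the median by −0.11 and gave 42, adding Psma2, Psma6, Psmd4, Psmd13 and Psme1, with 3590 of all genes lower. The 4 comparisons share populations, so their counts are not independent.

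The 6 genes for catalytic subunits all fell in basophils against DN-GMPs, where 23.2% of all genes did. The steps at which the 6 were called differed. To show the upstream sequence of these genes, windows from 250 bases before to 50 bases after the start site were taken from RefSeq (build GRCm38.p6) and searched on both strands for 3 motifs. The motif TGACNNNGC is the core of the antioxidant response element that Nfe2l1 and Nfe2l2 bind, TTCNNNGAA is the gamma-activated site, and the third motif is an interferon regulatory factor motif of 2 GAAA half-sites with 2 bases between them. Windows matched 41 of the 49 genes, with 44 windows in all. TGACNNNGC was found in 13.6% of those windows and in 12.4% of all 32851 windows. TTCNNNGAA was found in 6.82% of them and in 8.3% of all windows. The GAAA pair was found in 11.4% of them, those of Psmd4, Psmd9, Psmb3, Psmg4 and Psme1, and in 3.44% of all windows. Psmb7 had no window and so was not searched. The 3 catalytic genes with a match are shown, each as the 250 bases before its start site, 5′ to 3′ on the gene's strand, with the match in capitals. Psmb8 lies on the + strand at chr17:34197945-34198194 and holds TTCNNNGAA, whose letters also read the same on the other strand. Psmb5 lies on the - strand at chr14:54617996-54618245 and Psmb6 on the + strand at chr11:70525107-70525356, and both hold TGACNNNGC. Start sites are those of RefSeq: all 250 bases shown for Psmb8 and 27 of those for Psmb5 lie inside the longer gene span that GENCODE M21 gives, and none of those for Psmb6 do. No match overlapped another motif in these windows. A match describes letters in the window and does not show that a factor binds there.
Psmb8: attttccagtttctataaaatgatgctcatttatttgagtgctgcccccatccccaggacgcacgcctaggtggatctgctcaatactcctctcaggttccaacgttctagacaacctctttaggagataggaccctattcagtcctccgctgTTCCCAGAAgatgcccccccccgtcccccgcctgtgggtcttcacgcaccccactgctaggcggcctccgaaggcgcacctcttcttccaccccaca
Psmb5: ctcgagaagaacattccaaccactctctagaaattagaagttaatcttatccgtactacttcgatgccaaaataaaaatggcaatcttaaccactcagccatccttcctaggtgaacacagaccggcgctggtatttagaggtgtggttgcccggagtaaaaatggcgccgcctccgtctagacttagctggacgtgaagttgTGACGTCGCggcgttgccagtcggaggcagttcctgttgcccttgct
Psmb6: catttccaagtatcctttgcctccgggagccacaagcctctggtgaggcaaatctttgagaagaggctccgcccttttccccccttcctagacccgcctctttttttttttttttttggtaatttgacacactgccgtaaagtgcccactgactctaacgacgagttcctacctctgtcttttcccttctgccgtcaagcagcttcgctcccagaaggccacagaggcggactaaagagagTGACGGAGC

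Psmb8, the immunoproteasome subunit that replaces Psmb5, lies on chromosome 17 at 34197721-34201454 (GRCm38, GENCODE M21) within the MHC region. It stood at 391, 340 and 329 CPM in DN-GMPs, 306, 312 and 296 CPM in Pro-BMPs, 296, 254 and 264 CPM in Pre-BMPs and 212, 199 and 247 CPM in basophils. The basophil libraries lay below all others. It fell in basophils against DN-GMPs, by 0.69 on the log2 scale (limma SE 0.0996, adjusted p 0.000172). In basophils against Pre-BMPs it fell by 0.31 (SE 0.0996, adjusted p 0.0343), a call lost in 4 of 6 fits with 1 library left out, with adjusted p up to 0.129. Psmb8 shares 498 exon bases, 14.7% of its exons, with the antisense gene Gm20496, and since the library kits keep no strand, reads there cannot be told apart. Whether such reads were counted for Psmb8 or as ambiguous was not tested.

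Psmb9, which replaces Psmb6 and lies on chromosome 17 at 34181987-34187764, had overlapping levels in the 3 progenitor populations and fell at the step to basophils. It had 180, 143 and 144 CPM in DN-GMPs, 153, 138 and 148 CPM in Pro-BMPs, 165, 164 and 148 CPM in Pre-BMPs and 87.2, 89.1 and 67.9 CPM in basophils. The progenitor ranges overlapped, and every basophil library lay below them. It fell by 0.97 on the log2 scale in basophils against Pre-BMPs (limma SE 0.131, adjusted p 0.000213), a call kept in all 6 fits with 1 library left out. Its change in Pre-BMPs against Pro-BMPs was 0.12 (adjusted p 0.67). Psmb9 shares 212 exon bases with Tap1 on the opposite strand, where reads cannot be told apart either.

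Psmb10, which replaces Psmb7 and lies on chromosome 8 at 105935735-105938444, was called at an earlier step. Its libraries stood at 195, 158 and 180 CPM in DN-GMPs, 116, 126 and 128 CPM in Pro-BMPs, 69.1, 85.1 and 71.5 CPM in Pre-BMPs and 93.5, 78.2 and 103 CPM in basophils. The 3 progenitor populations did not overlap one another, and basophils overlapped Pre-BMPs alone. Psmb10 fell in Pre-BMPs against Pro-BMPs by 0.72 on the log2 scale (limma SE 0.134, adjusted p 0.00648, up to 0.0296 with 1 library left out). In Pro-BMPs against DN-GMPs the change was −0.52 (adjusted p 0.0754), and in basophils against Pre-BMPs it was 0.28 (95% confidence interval −0.01 to 0.57, adjusted p 0.143). Over the whole path it fell by 0.96 (adjusted p 0.000132).

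The constitutive partners Psmb5, Psmb6 and Psmb7 fell over the whole path and were not called in Pre-BMPs against Pro-BMPs. Psmb5 had 146, 107 and 127 CPM in DN-GMPs, 117, 138 and 116 CPM in Pro-BMPs, 116, 99.7 and 83.7 CPM in Pre-BMPs and 62.1, 75.6 and 76.5 CPM in basophils. Psmb6 had 316, 264 and 253 CPM in DN-GMPs, 251, 297 and 259 CPM in Pro-BMPs, 237, 225 and 195 CPM in Pre-BMPs and 131, 144 and 192 CPM in basophils. Psmb7 had 74.9, 70.6 and 80.8 CPM in DN-GMPs, 74.6, 66.5 and 59.9 CPM in Pro-BMPs, 44.1, 63.7 and 41.1 CPM in Pre-BMPs and 36.9, 36.2 and 40 CPM in basophils. For each of these genes the progenitor populations overlapped at 1 step or more, and the basophil libraries were below all progenitor libraries. Against DN-GMPs in basophils, Psmb5 fell by 0.82 (SE 0.160, limma adjusted p 0.00141), Psmb6 by 0.85 (adjusted p 0.000658) and Psmb7 by 1.00 (adjusted p 0.000644). Against Pre-BMPs, Psmb5 fell by 0.48 (adjusted p 0.0424) and Psmb6 by 0.51 (adjusted p 0.0219), and Psmb7 differed by −0.37 (adjusted p 0.133). The Psmb5 call was lost in 5 of 6 fits with 1 library left out and the Psmb6 call in 4 of 6. Psmb7 shares 405 exon bases with Nek6 on the opposite strand.

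**Figure D2:**
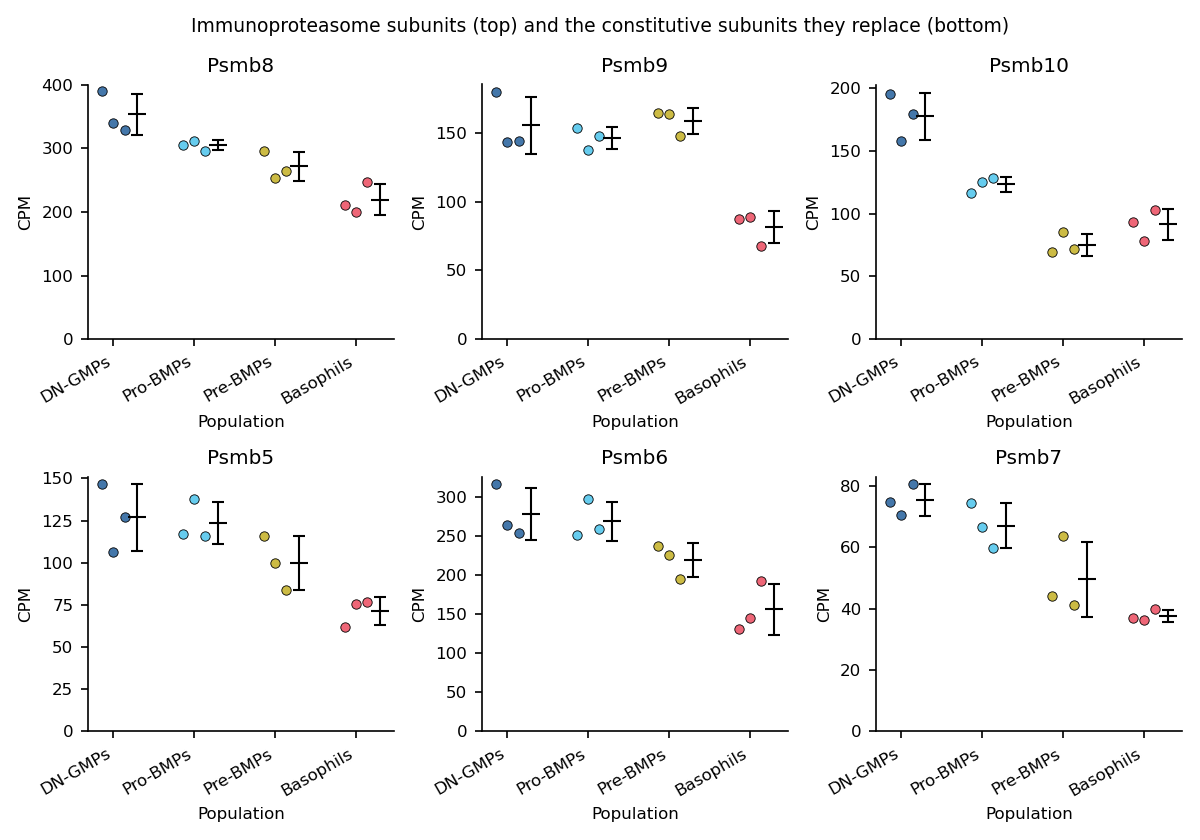
CPM (vertical axes, each from 0) of the immunoproteasome subunit genes (top) and the constitutive subunit genes below the one that replaces them, by population. Points are libraries, and bars give the mean and 1 SD of 3 libraries. Psmb9 drops between Pre-BMPs and basophils, while Psmb10 is already at 69.1 to 85.1 CPM in Pre-BMPs.

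Levels were compared between genes per kilobase of the transcript used, so an order can depend on the length chosen. Psmb8 reached 135 CPM per kilobase in basophils and 217 in DN-GMPs, above Psmb5, at 79.4 in basophils and 141 in DN-GMPs. The transcript used has 1628 bases for Psmb8, whose exons together hold 3381. For Psmb5 both lengths are 899 bases. The order of Psmb8 and Psmb5 thus depends on the length chosen and is not established. Psmb9 was below Psmb6, at 60.2 against 195 CPM per kilobase in basophils and 115 against 348 in DN-GMPs. Psmb10 was above Psmb7, at 69.8 against 32.5 CPM per kilobase in basophils and 136 against 65.0 in DN-GMPs.

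The balance within each pair was read as the log2 ratio of the CPM of the immunoproteasome gene to that of its constitutive partner, tested with an exact two-sided permutation F-test over all 369600 arrangements of the 12 libraries, where the smallest possible p is 6.49e-05. Of the 3 ratios, that of Psmb10 to Psmb7 differed among populations, with exact permutation p = 0.00818 (0.0245 adjusted over the 3). It averaged 1.23 ± 0.13 in DN-GMPs, 0.89 ± 0.23 in Pro-BMPs, 0.62 ± 0.19 in the Pre-BMP libraries and 1.27 ± 0.14 in basophils (SD, n = 3 each), so the Pre-BMP ratios, at 0.42 to 0.80, lay below the basophil ratios, at 1.11 to 1.36. This adjusted p rose to 0.0966 under quantile normalization, and leaving out 1 library gave adjusted p from 0.0150 to 0.0884. It was above 0.05 without Pro-BMP replicate 2, any Pre-BMP replicate or basophil replicate 1.

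The ratio of Psmb8 to Psmb5 averaged 1.49 ± 0.16 in DN-GMPs, 1.31 ± 0.11 in Pro-BMPs, 1.45 ± 0.18 in the Pre-BMP libraries and 1.62 ± 0.19 in basophils (SD, n = 3 each; exact permutation p = 0.176, adjusted 0.203). The populations overlapped. The ratio of Psmb9 to Psmb6 averaged −0.84 ± 0.04 in DN-GMPs, −0.87 ± 0.21 in Pro-BMPs, −0.46 ± 0.06 in the Pre-BMP libraries and −0.93 ± 0.50 in basophils (SD, n = 3 each; exact permutation p = 0.203, adjusted 0.203). Basophil replicate 3 stood at −1.50 and the other basophil libraries at −0.58 and −0.70. All Pre-BMP ratios, at −0.53 to −0.40, lay above every ratio of the other populations. Without basophil replicate 3 the adjusted p of the permutation F-test was 0.0255, and leaving out each library in turn gave 0.0255 to 0.439. Single steps could not pass 0.05 in the exact permutation test, since 3 libraries against 3 give p of at least 0.1, and the 12 step comparisons had adjusted p of at least 0.3.

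**Figure D3:**
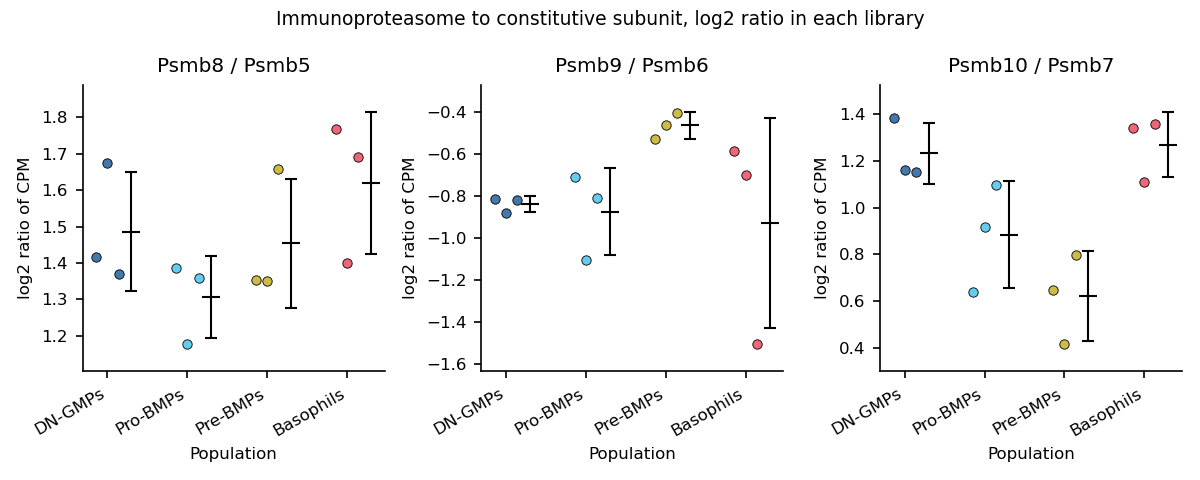
Log2 ratio of immunoproteasome to constitutive CPM (vertical axes, which do not start at 0) for the 3 pairs, by population. Points are libraries, and bars give the mean and 1 SD of 3 libraries. The Psmb10 ratio is lowest in Pre-BMPs, at 0.42 to 0.80, and one basophil library stands at −1.50 for Psmb9.

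In the alpha ring, whose subunits form the gate of the barrel, 6 of 8 genes fell in basophils against DN-GMPs, where 23.2% of all genes did. The median log2 change of the 8 was −0.66. Psma5 had 234, 192 and 210 CPM in DN-GMPs, 211, 222 and 196 CPM in Pro-BMPs, 158, 167 and 151 CPM in Pre-BMPs and 95.4, 83.7 and 91.6 CPM in basophils. DN-GMPs and Pro-BMPs overlapped, Pre-BMPs lay below both and basophils below Pre-BMPs. Psma5 fell at both later steps, by 0.40 in Pre-BMPs against Pro-BMPs (limma adjusted p 0.0287, lost in 4 of 6 fits with 1 library left out) and by 0.81 in basophils against Pre-BMPs (SE 0.101, adjusted p 0.000115, kept in all 6). Psma4 stood at 203, 172 and 177 CPM in DN-GMPs, 199, 191 and 173 CPM in Pro-BMPs, 139, 148 and 127 CPM in Pre-BMPs and 132, 112 and 130 CPM in basophils. It fell in Pre-BMPs against Pro-BMPs by 0.44 (adjusted p 0.0281, also lost in 4 of 6). Psma3 fell by 0.56 in basophils against Pre-BMPs (adjusted p 0.00699). Psma7 had the highest level of the 49 genes in DN-GMPs per kilobase of the transcript used, at 465 CPM, a rank that depends on the length chosen. It fell by 0.77 over the whole path (adjusted p 0.000157). Psma2 and Psma6 were not called in any comparison, with whole-path changes of −0.21 and −0.15, but passed the test there under both other scalings.

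Psma8, a paralogue of Psma7 known from the testis, was the lowest gene of the rings. It had 9.28, 12.7 and 2.14 CPM in DN-GMPs, 6.98, 11.4 and 2.65 CPM in Pro-BMPs, 9.7, 7.11 and 3.1 CPM in Pre-BMPs and 1.92, 0.0231 and 0.161 CPM in basophils, where the second value is 1 read. Replicate 3 was the lowest library of each progenitor population. It fell in basophils against Pre-BMPs, with a fitted log2 change of −4.73 (SE 1.26, limma adjusted p 0.0144) that depends on the 0.5 read added and comes to −3.83 with 5 reads added. The call was lost without Pre-BMP replicate 1 (adjusted p 0.0523), with voom weights (0.0666) and with both populations fitted alone (0.0541). Whether reads of Psma7 were counted as Psma8 was not tested, so this value is uncertain.

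In the beta ring the median log2 change of the 10 genes over the whole path was −0.76. Against 23.2% of all genes, 9 of these fell. Beyond the catalytic genes these were Psmb1, Psmb2 and Psmb4, structural subunits, with changes of −0.44, −0.68 and −0.43. Psmb3 was the exception, at 168, 186 and 173 CPM in basophils against 242, 164 and 187 CPM in DN-GMPs. Its groups overlapped, and the change was −0.15 (95% confidence interval −0.46 to 0.15, limma adjusted p 0.392), or −0.41 (adjusted p 0.0338) when scaled by the total of listed genes. In basophils against Pre-BMPs, Psmb5, Psmb6, Psmb8 and Psmb9 fell, and total scaling added Psmb1, Psmb2, Psmb4 and Psmb7.

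The ATPase ring unfolds substrates and feeds them into the core. Over the whole path 5 of its 6 genes fell, against 23.2% of all genes. Psmc5 had 184, 204 and 185 CPM in DN-GMPs, 167, 189 and 158 CPM in Pro-BMPs, 146, 152 and 121 CPM in Pre-BMPs and 82.6, 82.6 and 96.9 CPM in basophils. Pro-BMPs overlapped DN-GMPs, and the later populations did not overlap their neighbours. Psmc5 fell by 0.67 in basophils against Pre-BMPs (SE 0.118, limma adjusted p 0.00132), and Psmc1, Psmc4 and Psmc6 fell there by 0.51, 0.37 and 0.54. The Psmc4 call was lost without Pre-BMP replicate 1 (adjusted p 0.0624) and without a mean-variance trend (0.0609). Psmc3 fell over the whole path, by 0.41. None of the 4 comparisons called Psmc2, at 116, 154 and 158 CPM in basophils against 145, 178 and 185 CPM in DN-GMPs, although total scaling gave an adjusted p of 0.0185 for that pair.

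Among the 14 other regulatory genes, 10 fell and Psmd9 rose over the whole path, where 23.2% of all genes went each way. The median log2 change of the 14 was −0.67. Psmd7, the partner of the deubiquitinase Psmd14 in the lid of the regulatory particle, lies on chromosome 8 at 107580381-107588464. It stood at 259, 275 and 280 CPM in DN-GMPs, 257, 303 and 271 CPM in Pro-BMPs, 297, 299 and 286 CPM in Pre-BMPs and 109, 110 and 90.6 CPM in basophils. Pro-BMPs overlapped both other progenitor populations, and the basophil libraries were below all of them. It fell by 1.51 on the log2 scale in basophils against Pre-BMPs (limma SE 0.0958, adjusted p 7.82e-07) and by 1.40 against DN-GMPs (adjusted p 5.26e-07). Psmd14, the deubiquitinase itself, stood at 132, 158 and 131 CPM in basophils against 172, 180 and 128 CPM in Pre-BMPs, with a change of −0.18 (adjusted p 0.405, or 0.0263 with total scaling). It fell by 0.55 against DN-GMPs (adjusted p 0.0105).

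Psmd6, a lid subunit, fell at both later steps. Its libraries had 209, 192 and 211 CPM in DN-GMPs, 162, 182 and 176 CPM in Pro-BMPs, 137, 134 and 121 CPM in Pre-BMPs and 78, 93.6 and 90 CPM in basophils, with no overlap between neighbours. The log2 changes were −0.41 in Pre-BMPs against Pro-BMPs (limma adjusted p 0.0288, lost in 5 of 6 fits with 1 library left out) and −0.59 in basophils against Pre-BMPs (adjusted p 0.0012, kept in all 6). Psmd1, a large scaffold subunit, fell by 0.37 and 0.51 at the same steps (adjusted p 0.0258, lost in 4 of 6 fits, and 0.00135). Psmd3, Psmd11 and Psmd12 fell by 0.37, 0.37 and 0.36 in basophils against Pre-BMPs, calls lost in 5, 4 and 3 of 6 fits with 1 library left out, and by 0.81 to 1.06 against DN-GMPs. Psmd2 and Psmd8 fell against DN-GMPs, by 0.62 and 0.73. The ubiquitin receptor Psmd4 was not called in any comparison, at 154, 147 and 138 CPM in basophils against 171, 170 and 166 CPM in DN-GMPs (change −0.21, adjusted p 0.0829). Psmd13 was not called either, with a whole-path change of −0.19. Both passed the test over the whole path under quantile normalization (Psmd4 0.0097, Psmd13 0.0406) and total scaling (0.00152 and 0.00954).

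Psmd5, Psmd9 and Psmd10 are chaperones that help to build the base of the regulatory particle and leave it when it is finished. Over the whole path Psmd9 rose, Psmd5 fell and Psmd10 was not called. Psmd9, on chromosome 5 at 123169413-123250131, had 36.9, 42.1 and 41.4 CPM in DN-GMPs, 38.3, 45.5 and 36 CPM in Pro-BMPs, 50.3, 59.1 and 45.1 CPM in Pre-BMPs and 68.8, 77.7 and 74.3 CPM in basophils. All basophil libraries lay above all others. It rose by 0.87 on the log2 scale in basophils against DN-GMPs (limma SE 0.152, adjusted p 0.000656) and by 0.52 against Pre-BMPs (adjusted p 0.0223). The second call was lost under quantile normalization (0.0795), with scaling by the total of listed genes (0.345) and in 4 of 6 fits with 1 library left out. Psmd9 shares 1849 exon bases, 25.5% of its exons, with a long noncoding gene on the opposite strand, Gm26745, and reads there could not be told apart. Psmd10 stood at 65.6, 43.2 and 59.4 CPM in basophils against 37.1, 40.3 and 48.6 CPM in DN-GMPs, and was not called (change 0.40, adjusted p 0.145). Psmd5 fell by 0.58 in basophils against Pre-BMPs (adjusted p 0.0023), at 87.9, 90.8 and 100 CPM in basophils against 147, 127 and 142 CPM in Pre-BMPs.

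Of the activator genes, Psme2 and Psme3 fell over the whole path, where 23.2% of all genes and 28.6% of genes above 10 CPM did. Psme1, Psme2b and Psme4 were not called. Psme1 and Psme2 encode the subunits of one interferon-inducible ring that caps the core. Psme1 had 278, 274 and 243 CPM in DN-GMPs, 226, 215 and 208 CPM in Pro-BMPs, 235, 263 and 215 CPM in Pre-BMPs and 259, 236 and 284 CPM in basophils. Basophils and DN-GMPs overlapped, and no comparison called it; the whole-path change was −0.03 (95% confidence interval −0.25 to 0.19, limma adjusted p 0.83). Under quantile normalization that change was −0.28 (adjusted p 0.0363), and under total scaling −0.29 (0.0313). Psme2 had 261, 224 and 225 CPM in DN-GMPs, 207, 203 and 200 CPM in Pro-BMPs, 176, 182 and 150 CPM in Pre-BMPs and 141, 152 and 188 CPM in basophils. It fell by 0.57 in basophils against DN-GMPs (SE 0.12, adjusted p 0.00241), and its basophil libraries overlapped those of Pre-BMPs. The difference between the changes of both genes was not tested.

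Psme3, which forms a nuclear activator ring, fell by 1.03 over the whole path (limma adjusted p 0.000106) and by 0.42 in basophils against Pre-BMPs (adjusted p 0.0391, lost in 4 of 6 fits with 1 library left out). Its libraries stood at 308, 280 and 303 CPM in DN-GMPs, 282, 277 and 245 CPM in Pro-BMPs, 194, 227 and 167 CPM in Pre-BMPs and 168, 152 and 120 CPM in basophils. Psme4, another nuclear activator, was not called, at 39.6, 30.1 and 32.1 CPM in basophils against 37.7, 35.2 and 57.3 CPM in DN-GMPs. Psme2b, a single-exon near-copy of Psme2 whose reads are uncertain for that reason, had 2.06 to 5.58 CPM in any library and was not called. The inhibitor Psmf1 was not called either, at 40.4, 46.6 and 52.2 CPM in basophils against 55.9, 51.8 and 52.7 CPM in DN-GMPs.

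The 4 core assembly chaperones all fell in basophils, with log2 changes of −1.02 to −0.63 against Pre-BMPs and −1.89 to −1.01 against DN-GMPs. Of all genes, 16.5% fell against Pre-BMPs and 23.2% against DN-GMPs. Psmg1 and Psmg2 work as a pair on the alpha ring, as do Psmg3 and Psmg4. Psmg4 had 42.5, 36.2 and 61.1 CPM in DN-GMPs, 40.7, 37.7 and 32.2 CPM in Pro-BMPs, 25.6, 27.8 and 21.5 CPM in Pre-BMPs and 10.7, 15.5 and 11 CPM in basophils. Only DN-GMPs and Pro-BMPs overlapped. It fell by 1.02 in basophils against Pre-BMPs (SE 0.238, limma adjusted p 0.00707) and by 1.89 against DN-GMPs (adjusted p 6.12e-05), the largest whole-path change of a called proteasome gene after that of Psma8. Psmg1 stood at 33.8, 31.1 and 38.6 CPM in basophils against 72.9, 63.2 and 57.1 CPM in Pre-BMPs, a change of −0.90 (adjusted p 0.00485). Psmg2 stood at 35.1, 41.3 and 46.4 CPM in basophils against 73.7, 95.6 and 75.7 CPM in Pre-BMPs, a change of −0.995 (adjusted p 0.00386). Psmg3 fell by 0.63 (adjusted p 0.048), a call lost in 5 of 6 fits with 1 library left out. The Psmg3 call was also lost with quantile normalization (0.0777), voom weights (0.0831), no mean-variance trend (0.0543) and both populations fitted alone (0.0616).

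**Figure D4:**
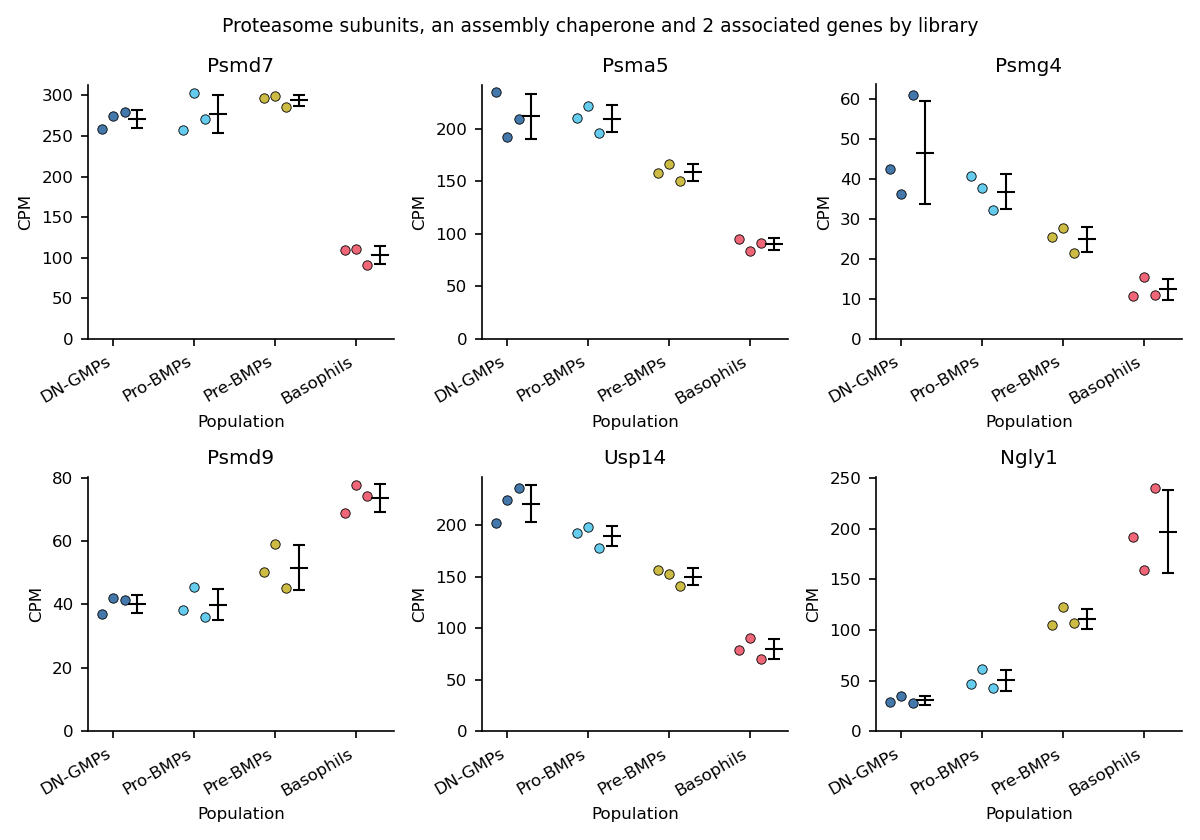
CPM (vertical axes, each from 0) of 4 proteasome genes and 2 genes that act with the proteasome, by population. Points are libraries, and bars give the mean and 1 SD of 3 libraries. Psmd7 is at 90.6 to 110 CPM in basophils and at 257 CPM or more in the progenitors, while Psmd9 and Ngly1 are highest in basophils.

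Psmc3ip, counted by its symbol alone, had 39, 37.2 and 34 CPM in DN-GMPs, 39.4, 47.5 and 39.1 CPM in Pro-BMPs, 23.6, 18.6 and 16.7 CPM in Pre-BMPs and 5.07, 17.1 and 8.97 CPM in basophils. It fell by 2.00 over the whole path (limma adjusted p 0.000795) and by 1.08 in basophils against Pre-BMPs (adjusted p 0.0398). The second call was lost in 5 of 6 fits with 1 library left out.

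Other genes of the ubiquitin-proteasome pathway were followed in a list of 32 symbols, of which 31 were listed in 32 rows. The F-test called 20 of the 32 (62.5%, against 46.8% of all genes and 59.1% of genes above 10 CPM). Limma called 0 in Pro-BMPs against DN-GMPs (1 higher and 3 lower at an unadjusted p under 0.05, and 0 with voom weights), 2 higher and 4 lower in Pre-BMPs against Pro-BMPs, 5 higher and 7 lower in basophils against Pre-BMPs, and 7 higher and 15 lower in basophils against DN-GMPs. In Pre-BMPs against Pro-BMPs these were 6.25% higher and 12.5% lower, against 4.8% and 4.69% of all genes (6.69% lower above 10 CPM). The shares in basophils against Pre-BMPs were 15.6% higher and 21.9% lower, against 13.9% and 16.5% of all genes. The share lower was near the 20.6% of genes above 10 CPM. Over the whole path 21.9% were higher, near the 23.2% of all genes, and 46.9% lower, against 23.2% (28.6% above 10 CPM). The median log2 change of the list in the last comparison was −0.39, against −0.73 for the 49 genes. Usp14, a deubiquitinase that docks on the proteasome, had 202, 225 and 237 CPM in DN-GMPs, 192, 198 and 178 CPM in Pro-BMPs, 156, 153 and 141 CPM in Pre-BMPs and 79.4, 90.2 and 70.7 CPM in basophils. It fell by 0.91 in basophils against Pre-BMPs (adjusted p 9.05e-05). Rad23b, a shuttle that carries ubiquitinated proteins to the proteasome, fell by 0.87 in Pre-BMPs against Pro-BMPs (adjusted p 0.01) and by 1.56 over the whole path. Sem1, a small lid subunit, and Uchl5, another docked deubiquitinase, fell by 0.65 and 0.60 in Pre-BMPs against Pro-BMPs, calls lost in 3 and 1 of 6 fits with 1 library left out. Uchl5 then rose by 0.39 in basophils against Pre-BMPs (adjusted p 0.0368). That call was lost in 5 of 6 such fits, under quantile normalization (0.257) and under total scaling (0.717). Rps27a, a ubiquitin fusion gene, and Txnl1, a redox protein bound to the regulatory particle, fell by 0.86 and 0.63 in basophils against Pre-BMPs.

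Of the genes that act on the transcription of subunit genes, Ngly1 and Nfe2l2 rose, Ddi2 fell and Nfe2l1 was not called. Ngly1, the deglycosylase that processes the factor Nfe2l1, had 28.5, 35.3 and 27.5 CPM in DN-GMPs, 46.4, 61.7 and 42.7 CPM in Pro-BMPs, 104, 122 and 107 CPM in Pre-BMPs and 191, 159 and 240 CPM in basophils. No neighbouring populations overlapped. It rose by 1.16 in Pre-BMPs against Pro-BMPs (limma adjusted p 0.00296), by 0.81 in basophils against Pre-BMPs (adjusted p 0.0069, or 0.06 with total scaling) and by 2.68 over the whole path (adjusted p 5.85e-07). Nfe2l2, a transcription factor of the antioxidant response, stood at 185, 152 and 159 CPM in basophils against 102, 97 and 92 CPM in Pre-BMPs and rose by 0.76 (adjusted p 0.00185). Nfe2l1 itself was not called in any comparison, at 86.4, 85.7 and 73.9 CPM in basophils against 61.3, 108 and 44.2 CPM in DN-GMPs. Ddi2, the protease that cleaves and so activates Nfe2l1, was chosen for mention after its values were seen. It stood at 20.4, 23.1 and 16.4 CPM in basophils against 41.5, 43.7 and 56.9 CPM in DN-GMPs, without overlap, and fell by 1.24 (adjusted p 0.00261, called in all 20 alternatives). Ubb, a polyubiquitin gene, rose by 0.60 over the whole path (adjusted p 0.0527 under quantile normalization). It rose by 0.26 in Pre-BMPs against Pro-BMPs (adjusted p 0.0276), a call lost in 5 of 6 fits with 1 library left out. In basophils against Pre-BMPs, Ubb rose by 0.22 (adjusted p 0.0218); this change was −0.37 under quantile normalization and −0.10 when scaled by the total of listed genes.

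Since immunoproteasome genes are known for antigen presentation, 17 genes of class I presentation and interferon gamma signalling were set beside them. The F-test called 14 of 17 (82.4%, against 46.8% of all genes and 59.1% of genes above 10 CPM). Limma called 1 higher in Pro-BMPs against DN-GMPs, 1 higher and 4 lower in Pre-BMPs against Pro-BMPs, 7 higher and 3 lower in basophils against Pre-BMPs, and 6 higher and 5 lower in basophils against DN-GMPs. The first of these was 5.88%, against 2% of all genes called higher there, and the second pair 5.88% and 23.5%, against 4.8% and 4.69%. Of the 17, 41.2% were higher in basophils against Pre-BMPs and 17.6% lower, against 13.9% and 16.5% of all genes. Over the whole path 35.3% were higher and 29.4% lower, against 23.2% of all genes in each direction. H2-T23, a nonclassical class I gene, rose at each step and by 2.59 over the whole path (adjusted p 1.02e-07), at 615, 547 and 608 CPM in basophils against 100, 110 and 84.9 CPM in DN-GMPs. Its calls in Pro-BMPs against DN-GMPs (adjusted p 0.0234) and in basophils against Pre-BMPs (0.0273) were each lost in 4 of 6 fits with 1 library left out, and the call in basophils against Pre-BMPs was also lost under quantile normalization and total scaling. Tapbp, the peptide-loading chaperone, rose by 1.42 over the whole path, and Irf1, a factor that drives immunoproteasome genes, by 1.16. Tapbpl, a Tapbp relative, rose by 1.16 in basophils against Pre-BMPs. Erap1, Pdia3 and Canx, a peptide trimmer and endoplasmic reticulum chaperones, fell by 0.70, 0.61 and 0.51 in Pre-BMPs against Pro-BMPs, and the Erap1 and Canx calls were lost in 5 and 4 of 6 fits with 1 library left out. Pdia3 then rose by 0.63 in basophils against Pre-BMPs (adjusted p 1.01e-05, kept in all 6), at 1191, 1224 and 1294 CPM in basophils against 867, 774 and 763 CPM in Pre-BMPs. Under quantile normalization this change was −0.11 (adjusted p 0.275). Over the whole path Pdia3 fell by 0.15 (adjusted p 0.0423), a call lost in 5 of 6 fits with 1 library left out.

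The interferon gamma receptor chains moved in opposite directions. Ifngr1 fell by 2.03 in basophils against Pre-BMPs (limma adjusted p 3.58e-07), at 114, 132 and 110 CPM in basophils against 412, 487 and 559 CPM in Pre-BMPs. Ifngr2 rose by 1.68 (adjusted p 0.000118), at 79.8, 71.1 and 87.4 CPM in basophils against 19.8, 28.5 and 27 CPM in Pre-BMPs. Calr, a chaperone of class I folding, fell by 0.42, and Nlrc5, the class I transactivator, stood at 0.231, 2.87 and 0.0231 CPM in basophils against 9.25, 6.92 and 21.7 CPM in Pre-BMPs. The fitted Nlrc5 change of −5.27 (adjusted p 0.00586) depends on the 0.5 read added. The 8 of 8 interferon response markers summed to 59.4 to 88.9 CPM in DN-GMPs, 60.9 to 135 CPM in Pro-BMPs, 106 to 214 CPM in Pre-BMPs and 165 to 268 CPM in basophils; their part in the values of Psmb8, Psmb9 and Psmb10 was not tested.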

How the data were processed

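RNA from 12 libraries of 4 sorted populations was analysed, 3 libraries each, made by SmartSeq v4 amplification and Nextera XT tagging per the labels' protocols. The submitters' processing notes name STAR, HTSeq, Trimmomatic and deepTools. Versions, build and annotation: not given in the sources used here. The authors deposited log2 values. In each column these were log2 of reads plus 0.5 per 1000000 of a scaled library size (40263971 to 58553590), and 100% of values gave whole reads within 0.001. The 3 rows of reads assigned to no gene held 6.65% to 12.6% (no feature), 3.63% to 4.14% (ambiguous) and 8.51% to 12.1% (not unique) of reads and were left out.

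Limma (version 3.58.1, R version 4.3.3) was applied to the log2 values of all 14560 genes as the authors deposited them, with 1 mean per population, no block and a mean-variance trend, tested on simulated data first. A gene was called where its two-sided p, adjusted by the Benjamini-Hochberg method over the whole table, was under 0.05. CPM were computed from the recovered reads and the scaled sizes. Levels per length used 1 GENCODE M21 transcript per gene. Pair ratios were tested by exact permutation in Python 3.11.15 with scipy 1.17.1. Replicates correlated at r of 0.913 to 0.950 across 8128 genes above 10 CPM, and no 2 libraries were duplicates.

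The genes and lists were chosen with earlier results of these data known. Named were the catalytic pairs, Psme1 and Psme2, the 3 largest called changes per comparison and direction among the members and in each list, members called against their subcomplex and members under 1 CPM; other members were described by subcomplex. Some genes of the lists that this rule names are not reported here. Alternatives were quantile normalization, scaling by the total of listed genes, 5 reads added, genes under 10 CPM left out, voom weights, no trend, both populations fitted alone, a replicate block and each library left out.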

Additional observations from a re-analysis of the deposited data

How the results depend on the processing

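Of 3912 alternative values for the 49 genes, 3729 kept their direction and side of the threshold, 57 passed it newly and 126 no longer passed. Of 1832 for 23 genes of the pathway and presentation lists, 1732 kept both, 13 passed newly, 84 no longer passed and 3 changed sign. With voom weights, 2 proteasome genes were lower in Pro-BMPs against DN-GMPs. With genes under 10 CPM left out, 9 were lower in Pre-BMPs against Pro-BMPs, and 1 other pathway gene was called in Pro-BMPs against DN-GMPs. Without a trend, 1 proteasome gene was lower in Pre-BMPs against Pro-BMPs and 14 in basophils against Pre-BMPs, with 2 pathway and 3 presentation genes called in Pre-BMPs against Pro-BMPs. With both populations fitted alone, 14 were lower in basophils against Pre-BMPs. Scaling by the total of listed genes gave 38 there, and 0 were higher under it and under quantile normalization. The 1 presentation gene called in Pro-BMPs against DN-GMPs became 0 with voom weights, without a trend and with both populations fitted alone. The ratio of Psmb10 to Psmb7 had an adjusted p of 0.0966 under quantile normalization. Under that setting the Ubb change in basophils against Pre-BMPs was −0.37, against 0.22 as deposited, and that of Pdia3 was −0.11, against 0.63; with total scaling that of Ubb was −0.10. The cause was not tested.

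Leaving out 1 library gave 0 to 1 pathway and 0 to 1 presentation genes in Pro-BMPs against DN-GMPs. In Pre-BMPs against Pro-BMPs it gave 1 to 7 proteasome genes lower, 3 to 7 pathway and 3 to 5 presentation genes. In basophils against Pre-BMPs it gave 0 to 1 proteasome genes higher and 14 to 22 lower. The count lower in basophils against DN-GMPs stayed at 35 to 38 and that of the F-test at 34 to 40. Adjusted p of the ratio of Psmb10 to Psmb7 ran from 0.015 to 0.0884, and of Psmb9 to Psmb6 from 0.0255 to 0.439. Differences in log2 ratio that changed sign were basophils minus DN-GMPs for Psmb10 to Psmb7 (−0.00749 to 0.12) and for Psmb9 to Psmb6 (−0.26 to 0.20), and Pro-BMPs minus DN-GMPs for Psmb9 to Psmb6 (−0.12 to 0.0788).

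The replicate numbers gave no steady pairing of the libraries: in 0 of 6 pairs of populations were all same-number correlations over 0.1. They ran from −0.123 to 0.127, and those of unlike numbers from −0.108 to 0.131. Between Pro-BMPs and Pre-BMPs the same-number values were 0.0486, 0.108 and 0.127, and the unlike-number values ran from −0.108 to 0.00153. A pairing of these populations is thus not excluded, and the main fit used no block. With the replicate block, 5 proteasome genes were lower in Pre-BMPs against Pro-BMPs, 21 in basophils against Pre-BMPs and 37 in basophils against DN-GMPs, and 3 presentation genes were called in Pre-BMPs against Pro-BMPs. Genes near 1 read, such as Psma8 in basophils, are limited by depth.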
